A study of Drosophila melanogaster with 2 samples.

Results

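The cytoplasmic ribosomal protein genes of Drosophila melanogaster were examined for binding by the zinc finger transcription factor pebbled (peb, also known as hindsight). They were chosen by symbol, as protein-coding genes of the Ensembl BDGP6 annotation named RpL or RpS followed by P or a number, together with sta. The rule found 93 genes among 13968 protein-coding genes on the main chromosomes, and 5 of them carry the suffix -like. Binding was measured by ChIP-seq on whole embryos of 0 to 24 h from the line peb-GFP, whose transgenic flies make peb fused to eGFP. The fusion was pulled down through its GFP tag in 2 biological replicates, which form 1 group, and the labels name no second genotype, treatment or stage. The labels do not say which promoter drives the fusion. Because whole embryos of many stages were pooled, binding in a few cells and weak binding in many cannot be told apart.

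Cytoplasmic ribosomal proteins make up the large and small subunits of the ribosome, and every growing cell needs nearly all of them in matched amounts. In flies, loss of a single copy of many of these genes gives the Minute phenotype of slow development and short bristles. Their promoters are known for a TCT initiator, a run of pyrimidines at the transcription start site (TSS) in place of the usual initiator, and many of them carry the DNA replication-related element (DRE), which the factor Dref binds. The protein peb is known for its role in the amnioserosa, the midgut, the tracheae and the nervous system of the embryo.

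Promoters of the 4 most strongly bound ribosomal protein genes whose sequence is shown, and of RpS7, which carries both promoter patterns named above, show where the peaks lay. RpS7 was chosen after its values were seen. Each runs from 200 bases before the TSS nearest to the summit to 20 bases from that TSS on, on the gene's own strand, from the RefSeq sequence of the dm6 assembly. Capitals mark the DRE (TATCGATA), the core of promoter motif 1 (GGTCACAC, on either strand) and matches to the TCT initiator (CTTTT or CTTTC) that begin within 10 bases of the TSS.
RpL32 (chr3R:30046142-30046361, minus strand): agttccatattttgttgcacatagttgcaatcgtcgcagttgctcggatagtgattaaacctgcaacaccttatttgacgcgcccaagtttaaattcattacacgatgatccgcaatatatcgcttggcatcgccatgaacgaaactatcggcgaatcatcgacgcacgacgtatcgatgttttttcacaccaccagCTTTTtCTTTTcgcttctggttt
RpL34b (chr3R:9401207-9401426, minus strand): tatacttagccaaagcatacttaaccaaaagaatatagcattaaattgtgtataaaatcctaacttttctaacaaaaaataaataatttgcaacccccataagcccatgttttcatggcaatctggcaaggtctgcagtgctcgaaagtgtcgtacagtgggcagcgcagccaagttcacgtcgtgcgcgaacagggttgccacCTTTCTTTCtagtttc
RpS27 (chr3R:25247495-25247714, minus strand): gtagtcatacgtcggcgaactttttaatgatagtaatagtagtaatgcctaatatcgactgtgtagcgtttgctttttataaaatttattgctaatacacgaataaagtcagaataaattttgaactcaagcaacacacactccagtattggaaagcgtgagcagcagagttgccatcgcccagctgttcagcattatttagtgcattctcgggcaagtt
RpL7 (chr2L:10200804-10201023, plus strand): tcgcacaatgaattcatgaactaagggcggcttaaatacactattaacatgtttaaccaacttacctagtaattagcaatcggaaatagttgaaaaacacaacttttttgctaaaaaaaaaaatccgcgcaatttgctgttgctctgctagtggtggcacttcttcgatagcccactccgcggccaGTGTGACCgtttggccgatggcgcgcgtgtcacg
RpS7 (chr3R:30208929-30209148, minus strand): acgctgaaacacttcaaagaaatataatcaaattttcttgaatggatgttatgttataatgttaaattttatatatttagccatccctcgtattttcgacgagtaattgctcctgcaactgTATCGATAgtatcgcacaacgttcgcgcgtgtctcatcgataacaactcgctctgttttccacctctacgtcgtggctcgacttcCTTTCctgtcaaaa

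Counted from the TSS, with upstream negative, the summit of the joint peak lay at -126 bp in RpL32, -119 bp in RpL34b, -13 bp in RpS27, 29 bp in RpL7 and -15 bp in RpS7. RpL32 and RpL34b show TCT matches near the start, RpL7 shows a motif 1 core just upstream of it, and RpS27 shows none of these patterns in this window.

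A gene was called bound when any of its TSSs had a peak summit no more than 1000 bp away. In the joint list, made by the authors from both replicates, 37 of the 93 ribosomal protein genes were bound (39.8%, exact 95% interval 29.8 to 50.5%), against 1840 of 13875 other protein-coding genes (13.3%) and 13.4% of all. The list that the authors named conservative also held 37 of them, against 13.1% of all genes, and the lists shared 31. Replicate 2 alone bound 33 (35.5%, interval 25.8 to 46.1%, against 10.7% of all genes). Replicate 1 alone bound 11 (11.8%, interval 6.05 to 20.2%, against 7.68% of all genes), so that the joint count of 37 fell to 11 without replicate 2 and to 33 without replicate 1. There were 10 genes bound in both replicates (10.8%, against 6.63% of all genes), each of them also in the joint list. The intervals cover the counting of genes alone. No enrichment test was run, since the gene list was drawn up with these results known.

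**Figure D1:**
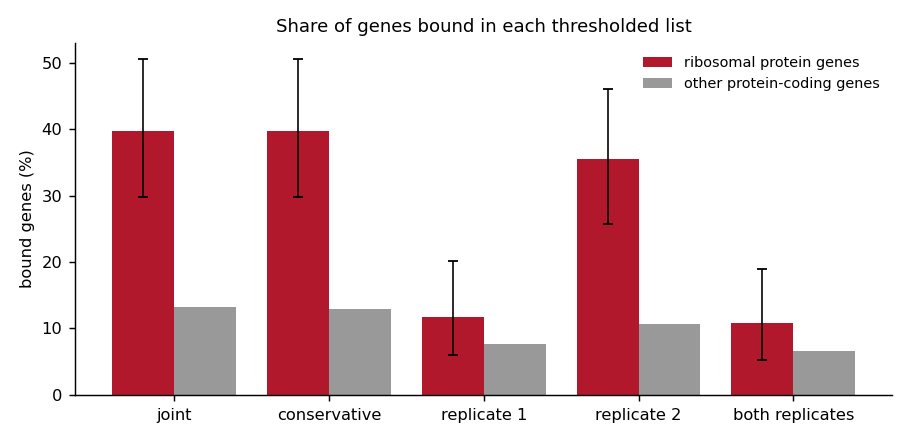
Share of genes bound (percent, vertical axis) in each thresholded list, for the 93 ribosomal protein genes (red, with exact 95% intervals) and the 13875 other protein-coding genes (grey). The red bar stands at 39.8% in the joint list, 11.8% in replicate 1 and 35.5% in replicate 2.

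The 10 genes bound in both replicates were also in the joint and conservative lists, and the 7 strongest joint peaks were among theirs. Signal values are the authors' own, one for each peak, and lists are not on a common scale. RpL32, whose transcript is widely used as a reference in fly expression studies, had 205 in the joint list, 101 in replicate 1 and 100 in replicate 2 (3R, peak 30046125 to 30046448). RpL34b had 178 in the joint list, 86.9 in replicate 1 and 93.4 in replicate 2. RpS27 had 171, with 59.1 in replicate 1 and 106 in replicate 2. These are large subunit proteins but for RpS27, of the small subunit. RpL7 had 169.9 in the joint list, 82.7 in replicate 1 and 86.7 in replicate 2. RpL23A, whose protein lies at the exit of the peptide tunnel, had 138, with 54.8 in replicate 1 and 79.9 in replicate 2. RpL41, which encodes one of the shortest proteins of the cell, had 136, with 63.5 in replicate 1 and 73.1 in replicate 2. None of these 6 ranked below 667 in replicate 1, the rank of RpL23A, or below 568 in replicate 2, that of RpL41. RpS20 followed with 122 in the joint list, 48.6 in replicate 1 and 76.4 in replicate 2. RpS28b had 101, with 37.5 in replicate 1 and 62.7 in replicate 2. For RpL27A the values were 83.4, with 37.4 in replicate 1 and 43.0 in replicate 2. All of these proteins belong to the large or the small subunit, as their letter L or S says. RpL17 had 77.3, with 38.7 in replicate 1 and 39.0 in replicate 2. Even the strongest, RpL32, ranked 234 in the joint list, and the bound ribosomal protein genes had a median signal of 74.5 (range 43.1 to 205) against 84.4 for the other bound genes.

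Another 19 genes were bound in the joint list and in replicate 2 but not in replicate 1. RpL14 had 116 in the joint list and 84.6 in replicate 2, and its peak had 31.8 in the ranked list of replicate 1. RpS7 had 86.9 in the joint list, 36.5 in replicate 1 and 53.0 in replicate 2. RpS3A, the single member on chromosome 4, had 83.5 in the joint list and 43.5 in replicate 2, and no entry of replicate 1 overlapped its peak. These genes were picked as bound in replicate 2 and not in replicate 1, so lower values in replicate 1 follow from that choice. The rest were RpL19 (80.0 in the joint list), RpL22 (78.9), RpS25 (77.4), RpL28 (75.8), RpLP0 (74.5), RpL13 (73.4), RpS4 (71.8), RpS21 (70.0), RpL31 (68.8), RpL27 (68.1), RpL30 (67.8), RpLP0-like (67.4), RpL8 (59.9), RpL38 (54.9), RpS19a (54.1) and RpS10b (54.0). RpLP0 forms the base of the ribosomal stalk, while RpLP0-like is the fly counterpart of yeast Mrt4, a ribosome assembly factor. RpL26 alone was bound in the joint list (77.7) and replicate 1 (46.6) without replicate 2, where its peak had 31.4. The remaining 7 were in neither replicate's thresholded list, namely RpL23 (63.1 in the joint list), RpL11 (57.8), RpS19b (57.7), RpL37-1 (53.8), RpS12 (53.1), RpS29 (51.2) and RpL35 (43.1). RpL11 is known for binding the p53 regulator MDM2 in mammals, and RpS12 for its part in cell competition in flies.

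**Figure D2:**
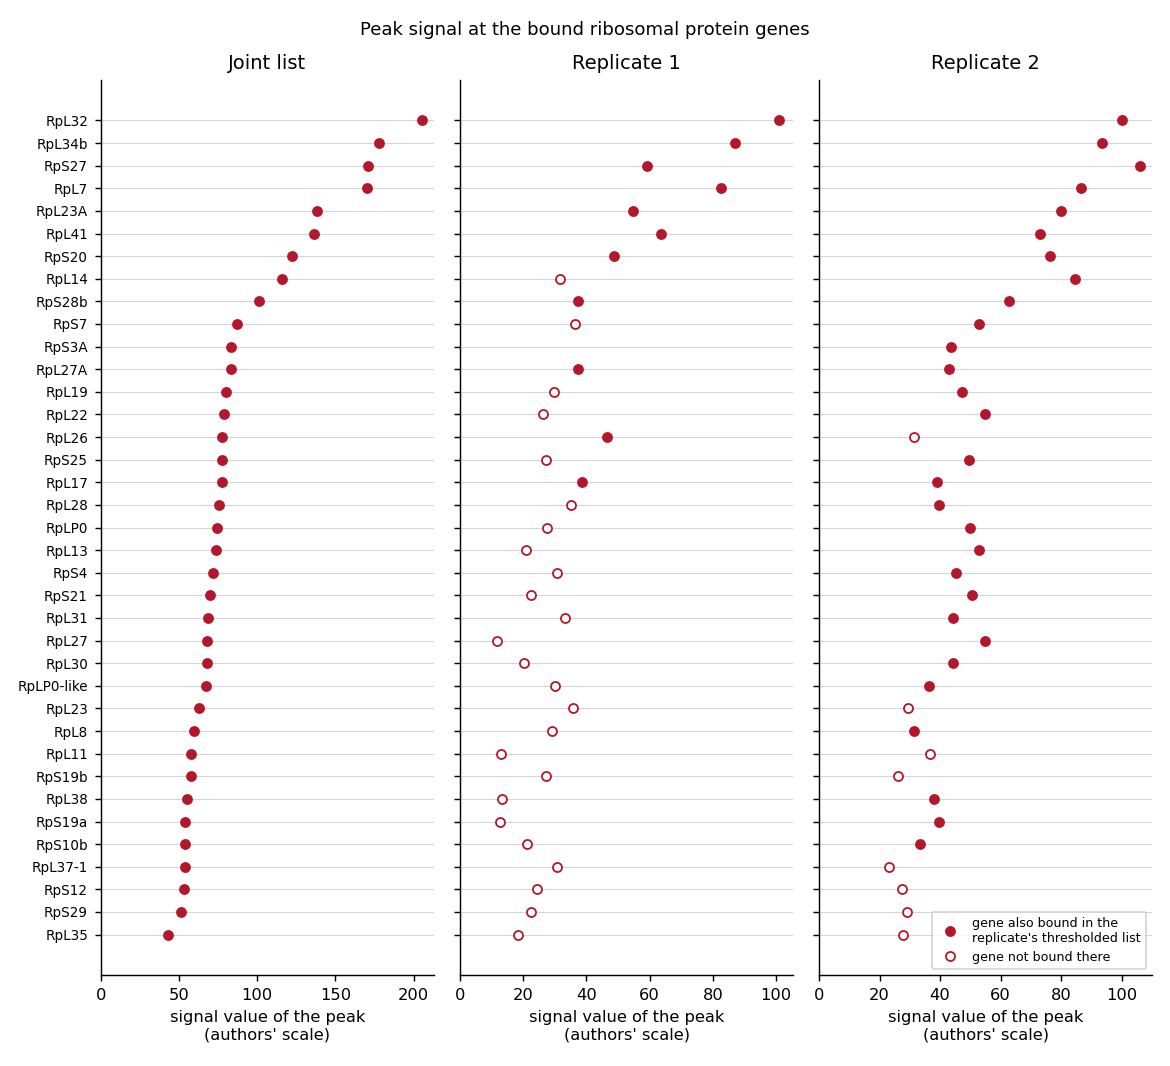
Signal value of the strongest joint peak at each of the 37 bound genes (left) and of the strongest overlapping entry in the ranked list of replicate 1 (middle) and replicate 2 (right), on the authors' scales, which differ between lists. Filled points in the replicate panels mark genes also bound in that replicate's thresholded list, 11 in replicate 1 (10 of them in both) and 29 in replicate 2, and RpS3A has no entry in replicate 1.

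The peaks of the ribosomal protein genes were also looked up in the full ranked lists, which hold 68162 entries on the main chromosomes for replicate 1 and 49560 for replicate 2. At the 37 joint peaks the overlapping entry had a median rank of 1882 in replicate 1 (36 peaks with an entry) and 1337 in replicate 2. The entry ranked higher in replicate 2 at 24 of 36 peaks (66.7%), against 908 of 1814 peaks of other bound genes (50.1%). There were 4 peaks that ranked beyond 10000 in replicate 1, those of RpL27 (27738), RpS19a (23334), RpL11 (22451) and RpL38 (20809), and 0 in replicate 2. Among peaks of other bound genes with an entry, 56 of 1825 did so in replicate 1 and 21 of 1829 in replicate 2. The signals of the 4 ribosomal protein genes in replicate 1 were 11.8, 12.8, 13.0 and 13.4, against 54.9, 39.7, 36.8 and 38.0 in replicate 2. These 4 were picked by their rank in replicate 1, so low signals there follow from that choice. The 2 lists are also not on a common scale.

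When an equal number of entries was taken from each replicate by signal, few ribosomal protein genes were among the strongest entries and more of them further down. The first 500 entries reached 3 ribosomal protein genes in replicate 1 (3.23%, against 3.42% of all genes) and 6 in replicate 2 (6.45%, against 3.24%). The first 2000 reached 24 in replicate 1 (25.8%, against 10.6% of all genes) and 34 in replicate 2 (36.6%, against 10.4%). With 5000 entries there were 42 in replicate 1 (45.2%, against 20.5%) and 60 in replicate 2 (64.5%, against 20.5%). At 500 entries the exact interval was 0.67 to 9.14% in replicate 1 and 2.4 to 13.5% in replicate 2. Both intervals, which cover the counting of genes alone, held the share of all genes. Counts of 3 and 6 are too small to tell whether the shares differ, and this was not tested. Whether the replicates differ at 500 entries was not tested. At 2000 and 5000 entries the share of ribosomal protein genes was above that of all genes in both replicates. This measure was added after the thresholded counts were seen.

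**Figure D3:**
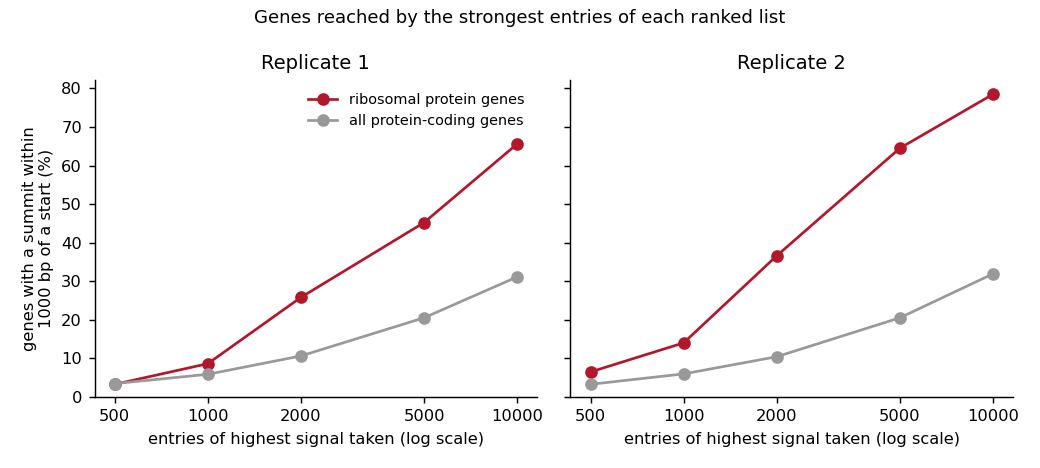
Share of genes with a summit within 1000 bp of a TSS (percent, vertical axis) among the 500 to 10000 entries of highest signal (horizontal axis, log scale) in the ranked list of replicate 1 (left) and replicate 2 (right), for the 93 ribosomal protein genes (red) and all protein-coding genes (grey). The red points reach 65.6% in replicate 1 and 78.5% in replicate 2 at 10000 entries, against 31.1% and 31.9% of all genes.

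Nearly every ribosomal protein gene had some entry in the ranked lists, 83 of 93 in replicate 1 (89.2%, against 78.3% of all genes) and 92 of 93 in replicate 2 (98.9%, against 72.3%). RpL6 had none in either. The best entry at a ribosomal protein gene had a median rank of 4829 in replicate 1, against 15115 for other genes with an entry, and of 2852 in replicate 2, against 12526. Among the 56 genes not bound in the joint list, 54 had an entry in the ranked list behind it, against 85.0% of all genes. Their median signal was 32.7 (range 12.5 to 88.8). For 34 of the 54 the entry lay within 100 bp of the TSS, against 17.5% of other genes with an entry, bound ones included.

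Some of these unbound genes had signals as high as bound genes but a low score. The score measures how reproducibly a peak was ranked (from the irreproducible discovery rate, IDR). RpL34a had 88.8 in the joint ranked list with an IDR score of 493, RpL24 72.5 with 397 and RpS16 63.9 with 662, while no peak of the thresholded lists has a score under 830. RpL34a, RpL24 and RpS16 were bound in the conservative list, as were RpL37A (58.1) and RpS28a (47.9). RpL34a was also bound in replicate 2, with 55.8, as were RpS5a (34.7) and RpS27A (32.4), which encodes a ubiquitin fused to a ribosomal protein. RpL13A passed the score threshold in the ranked joint list (61.8, score 1000) and in that of replicate 2 (41.3), with its summit at -78 bp in both, but no thresholded list held a peak at it. In all, 46 genes were bound in at least 1 thresholded list and 47 in none. The share of all genes bound in at least 1 of these lists was not counted. For the replicate lists alone, 34 genes were bound in at least 1 (36.6%), against 11.6% of other genes. Among the 47 were RpS6, the substrate of S6 kinase, and RpL40, which also encodes a ubiquitin fusion.

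Summits at ribosomal protein genes lay close to the TSS. Their median position was -40 bp, against -147 bp for other bound genes. Of the summits 31 lay upstream and 6 downstream, against 1512 and 328 for other bound genes. Most lay upstream in both groups. There were 28 of 37 within 100 bp (75.7%), against 387 of 1840 (21.0%), and 35 within 200 bp (94.6%), against 1015 (55.2%). Each replicate's own list showed a like position, with medians of -40 in replicate 1 (11 genes) and -39 in replicate 2 (33 genes), against -147 and -155 for other genes. The 2 genes beyond 200 bp were RpL23 (-237) and RpS19b (-840). RpS19b was the farthest inside the window of 1000 bp, and the summits nearest to unbound genes were 1747 bp from RpS3, 1764 bp from RpS15Ab and 1999 bp from RpS13. For 31 of the 56 unbound genes the nearest joint summit was more than 10000 bp away. The same count was not made for other unbound protein-coding genes, so nothing particular to these genes can be read from it.

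**Figure D4:**
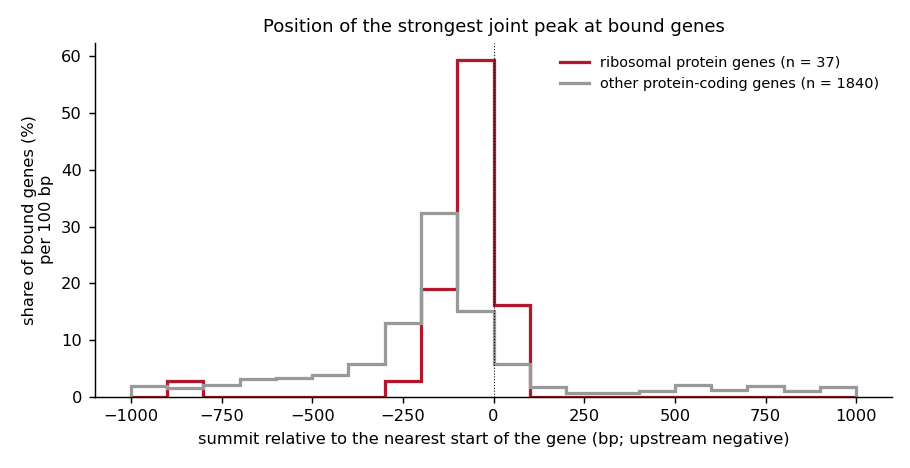
Position of the strongest joint summit relative to the nearest TSS of the gene (bp, upstream negative, horizontal axis) as a share of bound genes per 100 bp (percent, vertical axis), for the 37 ribosomal protein genes (red) and 1840 other genes (grey). The ribosomal protein genes peak in the 100 bp upstream of the TSS, and the other genes in the 100 bp before that.

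Peaks often lay near the TSS of a neighbour too, at a share near that of other bound genes. In 24 of 37 cases (64.9%) another protein-coding gene also had a TSS within 1000 bp of the summit, against 1078 of 1840 other bound genes (58.6%), and in 13 cases the ribosomal protein gene was the single one. The ribosomal protein gene had the nearest TSS at 35 of the peaks. The exceptions were RpS19b, whose peak was nearer to CG5854, and RpL14, whose summit lay at -64 bp from its own TSS and at -63 bp from that of Nelf-E, a subunit of the factor that pauses RNA polymerase. At RpL13 the summit lay at -17 bp from its TSS and at -67 bp from that of Dref, which encodes the DRE-binding factor itself. The peak of RpL28 was shared with the initiation factor gene eIF1, that of RpLP0-like with 14-3-3zeta, that of RpL8 with the kinase gene msn and that of RpS19a with the kinase gene Rok. A divergent neighbour starting within 1000 bp upstream stood beside 55 of 93 ribosomal protein genes (59.1%), against 33.3% of all genes. Among those with such a neighbour 23 of 55 were bound (41.8%, against 22.1% of all such genes), and among those without 14 of 38 (36.8%, against 9.1%).

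Ribosomal protein genes are short, and many hold other genes in their introns. The bound ones had a median length of 1387 bp and the unbound 1188 bp, against 2164 bp for all protein-coding genes, and a mean of 1.84 and 1.61 TSSs, against 1.41. Small nucleolar RNAs, which guide the modification of ribosomal RNA, lay within 14 of 37 bound and 15 of 56 unbound genes, against 0.601% of all protein-coding genes. When the outermost TSS of each gene alone was used, 37 ribosomal protein genes were bound, against 11.7% of others.

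Sequence patterns were counted from 250 bases before to 50 bases from the TSS that most transcripts share, on both strands. The TCT initiator, sought on the sense strand at any annotated TSS of the gene, was found at 31 of 37 bound (83.8%) and 45 of 56 unbound ribosomal protein genes (80.4%), against 13.8% of other bound genes and 9.54% of all genes. The DRE was found at 11 bound (29.7%) and 17 unbound genes (30.4%), against 11.4% of other bound genes and 9.23% of all. The motif 1 core was found at 5 bound (13.5%) and 9 unbound genes (16.1%), against 10.4% of other bound genes and 7.77% of all. Whether bound and unbound ribosomal protein genes differ in these shares was not tested. GAGAG was found at 16 of 93 ribosomal protein genes (17.2%, against 30.2% of all) and CAGCTG at 9 (9.68%, against 17.7%). TATAAA was found at 45.2% of them and 45.5% of all genes. Of the patterns with runs of C, as in the site of the mammalian homologue RREB1, CCCACCC was found at 0 of them (against 1.96% of all) and CCCCAAAC at 1 (1.08%, against 0.838%). CAGGTAG, the site of the early embryonic factor Zelda, was found at 0 (against 1.68%).

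**Figure D5:**
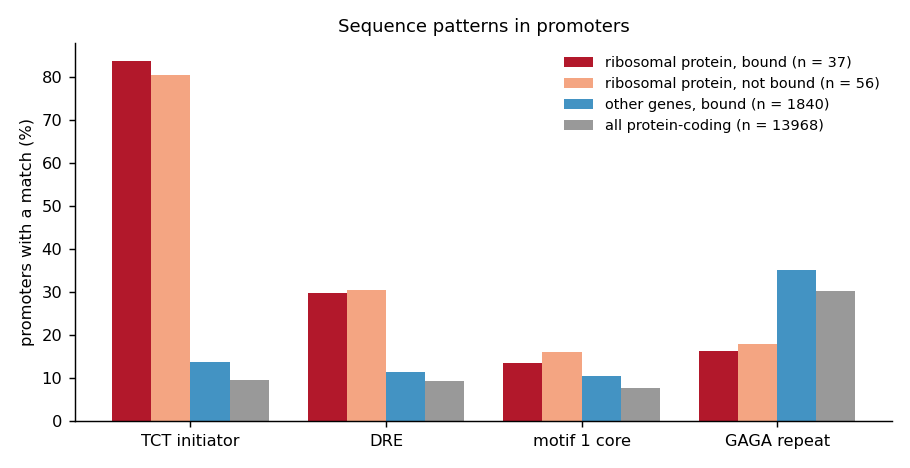
Share of promoters with a match (percent, vertical axis) to the TCT initiator, the DRE, the motif 1 core and the GAGA repeat, for bound and unbound ribosomal protein genes, other bound genes and all protein-coding genes. Bound and unbound ribosomal protein genes stand side by side for each pattern, at 83.8% and 80.4% for the TCT initiator.

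Under the summits themselves, with 100 bases either side, the DRE was found at 10 of the 40 joint peaks of ribosomal protein genes (25%), against 60 of 837 other peaks within 200 bp of a TSS (7.17%) and 2.25% of all other joint peaks. All 10 were the strongest peak of their gene, at RpL19, RpL27, RpL28, RpL37-1, RpL41, RpS7, RpS10b, RpS12, RpS25 and RpS29. The centre of the DRE lay 7.5 to 75.5 bases from the summit (median 34.5), where the search of 100 bases either side allowed no larger distance than that. In each case it lay upstream of the TSS nearest to the summit, at -6.5 in RpL19 to -88.5 in RpL28. In RpS29 it lay downstream of the outermost start of the gene. The motif 1 core was found at 5 peaks (12.5%), against 3.46% and 1.21%, namely those of RpL7, RpL27, RpL27A, RpL30 and RpLP0, with RpL27 carrying both patterns. CCCACCC, CCCCAAAC and CAGGTAG were found at 0 of the 40, against 1.19%, 0.239% and 0.478% of the other peaks within 200 bp of a TSS. GAGAG was found at 12.5% (against 21.3%), CAGCTG at 7.5% (against 13.0%) and TATAAA at 22.5% (against 36.8%). The windows at ribosomal protein genes had a mean GC content of 43.2%, against 36.4% for those other peaks, and its part in these shares was not tested.

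The DREs under 8 of these summits are shown with 11 bases either side, on the strand of the gene, from the same genome sequence and with the DRE in capitals. The flanks differ from gene to gene around the same 8 bases.
RpS7 (chr3R:30209009-30209038, minus strand): tcctgcaactgTATCGATAgtatcgcacaa
RpS25 (chr3R:11216328-11216357, minus strand): ccaccaccaacTATCGATAggcaggcgagc
RpL28 (chr3L:3223034-3223063, minus strand): tacgaaatgctTATCGATAgttgccctgcc
RpL27 (chr3R:25685073-25685102, minus strand): ttgccactaagTATCGATAaaaagacgacg
RpS10b (chrX:19597943-19597972, plus strand): tcttaagataaTATCGATAtattgccggcg
RpL37-1 (chrX:15139406-15139435, minus strand): cggacaaaaacTATCGATActcgcgcaacg
RpS12 (chr3L:13023300-13023329, plus strand): ctctgcgaaacTATCGATAtttgtaccaat
RpS29 (chr3R:9778046-9778075, plus strand): atcgtggaaaaTATCGATActgccaccccc

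Among the subunits, 22 of 47 large subunit genes were bound (46.8%, median signal 76.5) and 13 of 38 small subunit genes (34.2%, median 71.8). Stalk and -like genes were left out, and 13.4% of all protein-coding genes were bound. Whether the subunits differ was not tested. Of the stalk genes RpLP0, RpLP1 and RpLP2, RpLP0 was bound. Of the -like genes, RpLP0-like was bound, and RpL7-like, RpL22-like, RpL24-like and RpS28-like were not. By chromosome, 8 of 14 were bound on 3L (57.1%, against 14.7% of all genes there), 7 of 15 on X (46.7%, against 12.9%), 9 of 23 on 3R (39.1%, against 13.8%), 7 of 21 on 2R (33.3%, against 13.1%), 5 of 19 on 2L (26.3%, against 12.8%) and RpS3A on chromosome 4.

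Genes whose symbols differ only by a copy letter, a copy number or the suffix -like were set side by side as families. A -like gene need not encode a copy of the same protein, as RpLP0-like above shows. There were 13 families with more than 1 gene, 27 genes in all, of which 10 were bound (37.0%), and 27 of 66 single genes were bound (40.9%), against 13.4% of all protein-coding genes. Whether these shares differ was not tested. In 6 families a single gene was bound, in 2 families (RpLP0 and RpS19) more than 1, and in 5 none. RpL22 had 78.9 in the joint list, while RpL22-like, known for its role in the male germline, had 14.0 in the ranked joint list, below the threshold. RpS28b had 101, while RpS28a had 47.9 and RpS28-like 33.6 in the ranked list. RpL37-1 had 53.8 and RpL37-2 12.5 in that list, RpS10b 54.0 and RpS10a 24.4, and RpL7 169.9 and RpL7-like 22.7. These pairs were named because 1 gene passed the threshold of the joint list and the other did not. At the genes below the threshold, the summit in the ranked joint list lay at varied distances from the TSS. It lay at 232 bp in RpL37-2, 469 in RpL22-like, 543 in RpS28a, 692 in RpS28-like and 762 in RpL7-like. In RpS10a it lay at -39 bp and in RpL34a at -8 bp. Among other protein-coding genes with an entry in that list, 34.3% had it within 200 bp of the TSS, bound ones included. RpL34b (178) and RpL34a (88.8) were both high in the ranked list, but RpL34a failed the IDR threshold of the joint list. RpS14a (19.3) and RpS14b (32.1), neighbouring copies on X, were both unbound. Reads from near-identical copies can be placed on either, and the sources used here do not say how the alignments treated them.

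Other genes of translation were counted by the same rule. Genes for elongation factors, which drive the ribosome along the mRNA, were bound in 4 of 8 cases (50%), namely eEF1gamma (173), eEF5 (85.0), eEF2 (80.0) and eEF1alpha1 (71.8). Of 21 ribosome biogenesis genes 6 were bound (28.6%). The strongest were eIF6 (267), which keeps the large subunit from joining too early, and Ns2 (189), a nucleolar GTPase. Of 73 mitochondrial ribosomal protein genes 15 were bound (20.5%), with a median signal of 154, and mRpL41 (781) and mRpS10 (752) were the strongest. Of 44 initiation factor genes, eIF6 again among them, 6 were bound (13.6%), which is near the 13.4% of all genes. The strongest was eIF2Bbeta (1055, summit at -685 bp), which had the highest signal of the joint list. Of 7 RNA polymerase I genes, Polr1D was bound (55.1). In replicate 1, where 7.68% of all genes were bound, the elongation factors had 1 bound gene, the biogenesis genes 4, the mitochondrial ribosomal protein genes 10, the initiation factors 4 and RNA polymerase I 1. In replicate 2, where 10.7% of all genes were bound, they had 4, 5, 12, 7 and 0 in that order.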

How the data were processed

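ChIP-seq peaks of 2 replicates were taken as deposited. Per the labels, sonicated chromatin was 200 to 800 bp long. Per the README files and file headers, coordinates are on dm6, peaks of each replicate were called on its own alignments and those of the joint and conservative lists on the alignments of both, in each case with further files. The signal value and score of each peak, and in ranked lists the −log10 of the global IDR, were deposited by the authors. Every thresholded peak has a score of 830 or more. Aligner and peak caller are not given in the sources used here. Depth is unknown, since the lists give no read counts. The 8 last columns of each ranked list match no sample and stayed unused.

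Summits were assigned to TSSs of all transcripts of protein-coding genes (Ensembl release 115) on the main chromosomes, whose lengths hold all peaks, with pandas 2.3.3 and numpy 2.4.6 under Python 3.11.15, with scipy 1.17.1 for intervals and matplotlib 3.10.9 for figures. The assignment was checked on planted summits. A gene's value is that of its strongest peak. Entries overlapped a joint peak by 1 bp or more. Intervals are exact (Clopper-Pearson). Named were all bound genes, the 12 strongest and those in both replicates with full values, paralogues, the strongest unbound genes, and up to 4 per background list, and the values of some genes are not reported here. Of 24 biogenesis genes, 21 were found by symbol. The members and lists were chosen with earlier results of these data known. Alternatives were other TSS windows and definitions, stricter lists, each replicate alone, and the members without second paralogues and -like genes.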

Additional observations from a re-analysis of the deposited data

How the results depend on the processing

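The joint count of 37 bound genes lay between 32 and 38 under every alternative but 1, a list without replicate 2. The 32 came from leaving out second paralogues and -like genes. That left 79 members, of which 40.5% were bound, against 39.8% of all 93. Leaving out 1 replicate gave 11 to 33. The share of ribosomal protein genes bound was 1.55 times that of other genes without replicate 2, the lowest among the settings tried for the joint list, and 6.16 times, the highest among them, with a window of 200 bp and the nearest TSS, an alternative chosen after seeing the data. The count of 11 in replicate 1 became 24 with its 2000 entries of highest signal, also chosen after seeing the data, and stayed between 9 and 11 otherwise. The count of 33 in replicate 2 lay between 29 and 34. The median summit position of -40 moved to -28 in the conservative list and with the outermost start, to -37 with a window of 200 bp, the nearest TSS and a score of 1000, and to -38.5 with 500 bp. Leaving out 1 replicate gave -40 to -39 for the position and 50 to 54.8 for the median signal, on other scales than the joint 74.5. The cause was not tested. No paired analysis was possible because there is 1 group. Depth could not be assessed from the lists.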
